A study of Mus musculus with 4 samples.

Results

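The genes described here are 37 mouse genes of ribosome biogenesis and the nucleolus, taken from a fixed list of symbols. All 37 were found by symbol among the 27179 genes of the deposited expression table, and all 37 passed the filter on low values that left 12107 genes for testing. RNA was sequenced from leukemia stem cells (LSCs), the cells held to sustain an acute myeloid leukemia, sorted by flow cytometry from bone marrow in a mouse model. The 2 wild-type and the 2 B7-H4-null samples share the C57BL/6 strain, the tissue and the sort gate, YFP+/Mac-1+/c-Kit+, in which a yellow fluorescent protein, a myeloid integrin and a stem cell factor receptor are all present. B7-H4, the product of Vtcn1, is a B7 family ligand that restrains T cells. No source used here gives the leukemia's driver, the age of the mice or whether samples came from separate animals. The p-values therefore reflect the scatter of these samples alone, and that scatter may be technical. The comparison asks which of these genes differ in level between LSCs of the genotypes. Values are given in the order of replicates 1 and 2 for the wild-type pair and then for the B7-H4-null (null) pair.

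Ribosomes are built in the nucleolus. RNA polymerase I transcribes a long precursor RNA there, small nucleolar ribonucleoproteins (snoRNPs) guide its chemical modification and folding, and large assemblies then cut it and load ribosomal proteins to give the 40S and 60S subunits. In blood progenitors and leukemias this pathway is known as a main cost of cell growth and as a target of the Myc transcription factors, and NPM1, the human counterpart of Npm1, is among the genes most often mutated in acute myeloid leukemia.

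The 4 libraries held 9419425 to 10814448 reads behind the scaling of their RPKM values (reads scaled to gene length and library size), and 11814 to 11871 genes reached 1 RPKM in each. The 37 members had 350 to 21969 recovered reads per library. Reads of Vtcn1 numbered 0 in each wild-type library and 1 in each B7-H4-null library, too few to check the genotype labels. Of 4 genes that mark the sorted cells, Itgam, Itgb2 and Ptprc were lower in both null libraries than in both wild-type libraries (adjusted p = 0.556, 0.371 and 0.64, limma). Of all tested genes, 28.0% were lower in this way. Itgb2 stood at 213 and 213 RPKM in the wild-type pair, then 123 and 146 RPKM in the null pair, Itgam at 114 and 86.9, then 82.9 and 59.9 RPKM, and Kit at 24.01 and 7.19, then 11.02 and 9.37 RPKM. B7-H4-null replicate 2 stands apart from the other libraries in the members' levels, as shown next, so the medians are given with it and then without it.

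Ribosome biogenesis genes were at their highest in B7-H4-null replicate 2, while B7-H4-null replicate 1 lay between or below the wild-type libraries for most of them. Of the 37 members, 36 had their highest level in B7-H4-null replicate 2, where 26.4% of all tested genes did, and Nop56 was highest in B7-H4-null replicate 1. After median-ratio scaling the count was 36, and after quantile normalization 35. Summed over the members, the level was 1860 and 1558 RPKM in wild type replicates 1 and 2, and 1948 and 2840 RPKM in B7-H4-null replicates 1 and 2. The median member stood at 38.3, 32.9, 37.7 and 58.4 RPKM in the same order. In bulk RNA, a different share of cells of some type and a different amount of RNA per cell cannot be told apart.

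None of the 37 members passed the test of genotype. The test was limma on log2(RPKM + 1) with Benjamini-Hochberg adjustment at 0.05 over all 12107 genes, of which it called 12, or 0.0991% (0.0413% higher and 0.0578% lower). Before adjustment, 3 members were higher (Npm1, Nop56 and Nop2) and 0 were lower at p under 0.05, where 5.05% of all tested genes were higher and 7.2% lower. Limma-voom on recovered reads also called 0 members, and 3 were above and 0 below wild type before adjustment at the same p. The smallest adjusted p among the members was 0.306, for Npm1. With 2 samples on each side the smallest two-sided p of an exact permutation test is 0.333, and no such test was made.

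The members nevertheless lay above wild type on the log2 scale in most cases. Their median log2 difference, B7-H4-null minus wild type, was 0.33, beside −0.09 for all tested genes, and 33 of 37 were above 0, where 41.5% of all tested genes were. After median-ratio scaling 35 of 37 were above 0, beside 50.6% of all tested genes, since that scaling turns Ubtf and Tsr1, and after quantile normalization 33 of 37 were, beside 46.2%. For 8 members both B7-H4-null libraries lay above both wild-type libraries, beside 16.0% of all tested genes, and for 0 members both lay below, beside 28.0%. With median-ratio scaling 18 members were higher without overlap, beside 22.1% of all tested genes, and with quantile normalization 13, beside 19.1%. The size of the difference depended on B7-H4-null replicate 2. Without that library the members' median was −0.0061, beside −0.14 for all tested genes. Then 18 members were above 0, beside 38.2% of all tested genes. Without B7-H4-null replicate 1 the median was 0.69, all 37 members were above 0 beside 47.0%, and 12 were higher at an unadjusted p under 0.05 beside 4.04%, with 0 called after adjustment. That p sets 1 null library against the wild-type pair, so it assumes that the lone library varies as the pair does.

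**Figure D1:**
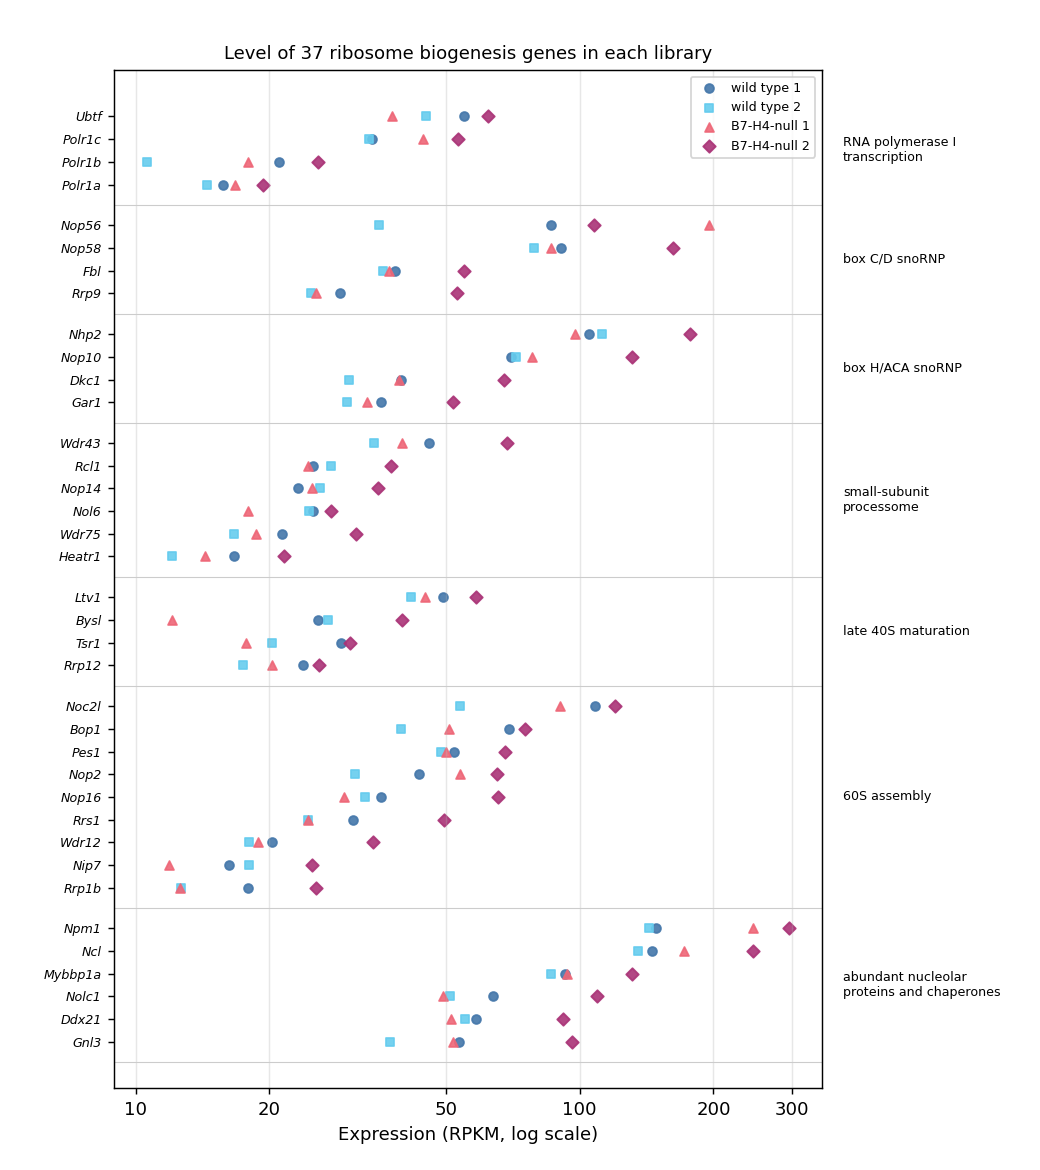
Level of each of the 37 members in RPKM (log axis) in the 4 libraries, 1 marker per library, grouped by role in ribosome assembly. B7-H4-null replicate 2 (diamonds) is the rightmost marker for 36 members, while Nop56 is highest in B7-H4-null replicate 1 at 195 RPKM.

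The members' median gap between the B7-H4-null libraries was larger than the 0.33 between the genotype means, which stood beside −0.09 for all tested genes. Single libraries vary more than means of a pair, so the sizes of these gaps are not directly comparable. From B7-H4-null replicate 1 to replicate 2 the median member differed by 0.63 on the log2 scale, beside 0.13 for all tested genes, and 36 of 37 members were higher in replicate 2, where 61.2% of all tested genes were. In 22 members replicate 2 was at least 1.5-fold above replicate 1, beside 17.5% of all tested genes. Wild type also showed an order, of smaller size. There 31 of 37 members were higher in replicate 1 than in replicate 2, beside 46.4% of all tested genes, with a median difference of 0.21 beside −0.031. B7-H4-null replicate 1 lay between the wild-type libraries for 17 members, below both for 12, beside 49.8% of all tested genes, and above both for 8, beside 26.4%. Replicate 2 lay above both wild-type libraries for all 37, beside 33.6%. The lowest of the 4 libraries was wild type replicate 2 for 23 members, beside 22.8% of all tested genes, and B7-H4-null replicate 1 for 12, beside 39.0%.

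**Figure D2:**
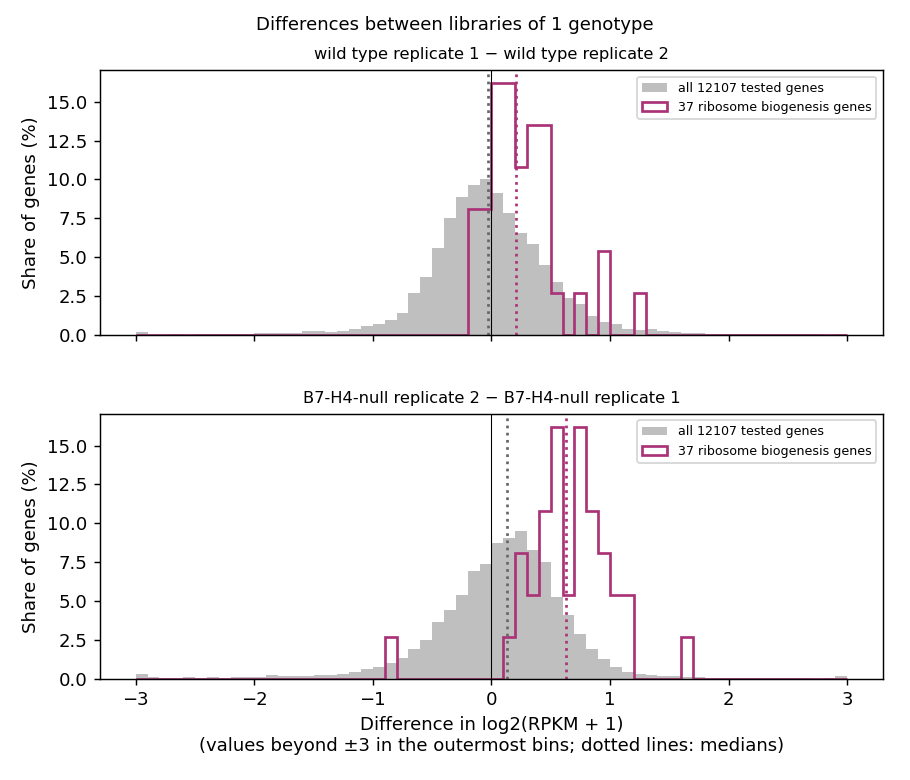
Share of genes (percent) by difference in log2(RPKM + 1) between the 2 libraries of a genotype, for all 12107 tested genes (grey) and the 37 members (outline). The members' median (dotted, purple) lies at 0.21 in wild type and at 0.63 in B7-H4-null, beside −0.031 and 0.13 for all tested genes (dotted, grey).

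The group of abundant nucleolar proteins and chaperones acts at several steps, and Npm1 and Ncl had the highest mean levels of the 37 members. Npm1 (gene ID 18148, chromosome 11, 33152498 to 33164142 on GRCm38.p6), a histone and ribosomal protein chaperone, had 149 and 143 RPKM in wild type replicates 1 and 2 and 245 and 297 RPKM in B7-H4-null replicates 1 and 2. Both B7-H4-null libraries were above both wild-type libraries, and the wild-type values lay close together. Its mean was 1.86-fold that of wild type, with a log2 difference of 0.88 ± 0.257 (SE, adjusted p = 0.306, limma), higher in 2 of 2 B7-H4-null libraries. This value depended little on any 1 library: it ranged from 0.75 without B7-H4-null replicate 2 to 1.02 without B7-H4-null replicate 1.

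Ncl (gene ID 17975, chromosome 1, 86344719 to 86359455) encodes nucleolin, which binds the precursor RNA and supports its transcription. It had 145 and 135 RPKM in the wild-type pair, then 172 and 246 RPKM in the null pair, again with no overlap. The log2 difference was 0.55 ± 0.283 (SE, adjusted p = 0.496, limma), and 0.29 without B7-H4-null replicate 2. The gene length behind the Ncl values is 8257 bases, close to its longest GENCODE transcript of 8202 bases, and its RPKM depends on that length. Which transcript the cells expressed was not examined. Ncl had 11068 to 21969 reads per library, beside 2443 to 5513 for Npm1 over 1718 bases, so the order of these genes by RPKM rests on the lengths used.

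The remaining proteins of this group split in B7-H4-null replicate 1. Mybbp1a, a Myb-binding protein that joins polymerase I transcription to processing, had 92.4 and 86.2 RPKM in the wild-type pair, then 93.7 and 131 RPKM in the null pair, a narrow separation. Gnl3, the GTPase nucleostemin, had 53.5 and 37.3 RPKM in the wild-type pair, then 51.8 and 96.2 RPKM in the null pair. Its B7-H4-null replicate 1 lay inside the wild-type range. Nolc1, a chaperone of snoRNPs, had 63.9 and 51.1 RPKM in the wild-type pair, then 49.1 and 109 RPKM in the null pair, so the genotype's libraries held both its lowest and its highest value. Ddx21, an RNA helicase that senses polymerase I activity, showed the same layout, with 58.3 and 55.01 RPKM against 51.3 and 91.7 RPKM. The group's median log2 difference was 0.45 over 6 genes, and 0.14 without B7-H4-null replicate 2. Npm1, Ncl and Mybbp1a were the 3 without overlap, where 16.0% of all tested genes were higher without overlap.

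The box C/D snoRNP proteins carry out ribose methylation of the precursor RNA. Nop56 (gene ID 67134, chromosome 2, 130274367 to 130279313), a core scaffold of the particle, had 86.3 and 35.3 RPKM in the wild-type pair, then 195 and 108 RPKM in the null pair. Its libraries did not overlap, its wild-type values differed by the largest fold of any member, and its B7-H4-null replicate 1 was the higher of the pair. The mean was 60.8 ± 36.05 RPKM in wild type and 151 ± 61.8 RPKM in B7-H4-null as mean ± SD (n = 2), 2.49-fold. The log2 difference was 1.37 ± 0.48 (SE, adjusted p = 0.337, limma), higher in 2 of 2 B7-H4-null libraries, and it ran from 0.74 without wild type replicate 2 to 2.01 without wild type replicate 1.

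The partners of Nop56 in the particle followed another order. Nop58, the second scaffold protein, had 90.5 and 78.9 RPKM in the wild-type pair, then 86.3 and 162 RPKM in the null pair. Its log2 difference was 0.48 ± 0.348 (SE, adjusted p = 0.621, limma), and 0.031 without B7-H4-null replicate 2. Fbl, the methyltransferase fibrillarin, had 38.3 and 36.1 RPKM in the wild-type pair, then 37.3 and 55.0 RPKM in the null pair. Rrp9, which binds the U3 RNA that starts precursor cleavage, had 28.9 and 24.8 RPKM in the wild-type pair, then 25.4 and 52.9 RPKM in the null pair. In these genes B7-H4-null replicate 1 sat within the wild-type range and replicate 2 above it. The group's median was 0.46 over 4 genes, and 0.017 without B7-H4-null replicate 2, beside −0.14 for all tested genes without it.

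The box H/ACA snoRNP proteins turn uridines of the precursor into pseudouridine, and they also bind telomerase RNA. Dkc1, the pseudouridine synthase dyskerin, had 39.6 and 30.2 RPKM in the wild-type pair, then 39.2 and 67.4 RPKM in the null pair, a log2 difference of 0.56 ± 0.331 (SE, adjusted p = 0.558, limma). Nop10, its smallest partner, had 70.1 and 71.8 RPKM in the wild-type pair, then 77.9 and 131 RPKM in the null pair, at 0.51 ± 0.314 (adjusted p = 0.571, limma). It was the 1 member of these 4 without overlap, beside 16.0% of all tested genes higher without overlap. Nhp2, which binds the guide RNA, had 105 and 112 RPKM in the wild-type pair, then 97.4 and 177 RPKM in the null pair. Its B7-H4-null replicate 1 was the lowest of the 4 libraries, and its difference of 0.27 ± 0.336 (adjusted p = 0.778, limma) became −0.16 without B7-H4-null replicate 2. Gar1 had 35.7 and 29.9 RPKM in the wild-type pair, then 33.2 and 51.9 RPKM in the null pair. All 4 genes were above 0 on the log2 scale, with a median of 0.42. It was 0.078 when B7-H4-null replicate 2 was left out, beside −0.14 for all tested genes.

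RNA polymerase I genes differed least of the 7 role groups between the B7-H4-null libraries, by a median of 0.38 on the log2 scale. Polr1c (gene ID 20016, chromosome 17, 46243920 to 46248045), a subunit that polymerase I shares with polymerase III, had 34.1 and 33.5 RPKM in the wild-type pair, then 44.3 and 53.1 RPKM in the null pair. Its libraries did not overlap, with a log2 difference of 0.51 ± 0.245 (SE, adjusted p = 0.469, limma) that stayed between 0.38 and 0.64 whichever library was left out. Polr1a, the largest subunit, had 15.7 and 14.5 RPKM in the wild-type pair, then 16.7 and 19.3 RPKM in the null pair. Polr1b, the second largest, had 21.0 and 10.6 RPKM in the wild-type pair, then 17.9 and 25.8 RPKM in the null pair. Its log2 difference of 0.50 ± 0.371 (adjusted p = 0.631, limma) was 0.032 without wild type replicate 2, the library in which it was lowest.

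Ubtf, the factor that opens ribosomal DNA for polymerase I, did not share that layout. It had 54.7 and 44.99 RPKM in the wild-type pair, then 37.7 and 62.1 RPKM in the null pair, so the null libraries lay on either side of wild type. The log2 difference was −0.035 ± 0.314 (SE, adjusted p = 0.977, limma), and 0.066 after median-ratio scaling. The 4 polymerase I genes had a median of 0.37, or 0.19 without B7-H4-null replicate 2. Polr1a and Polr1c were the 2 without overlap, beside 16.0% of all tested genes higher without overlap.

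The small-subunit processome folds and cuts the 5′ part of the precursor. Wdr43 had 45.7 and 34.5 RPKM in the wild-type pair, then 39.8 and 68.4 RPKM in the null pair, and Wdr75, which sits in the same early subcomplex, had 21.4 and 16.6 RPKM against 18.6 and 31.3 RPKM. Both showed B7-H4-null replicate 1 between the wild-type libraries, and the log2 difference was 0.39 ± 0.333 in Wdr43 (SE, adjusted p = 0.679, limma) and 0.34 ± 0.32 in Wdr75 (adjusted p = 0.705, limma). Heatr1, a large scaffold, ran in the same order at 16.6 and 12.1 RPKM against 14.3 and 21.6 RPKM. Nop14 had 23.2 and 26.0 RPKM against 24.9 and 35.1 RPKM. Rcl1, a cyclase-like protein, had 25.1 and 27.5 RPKM against 24.4 and 37.6 RPKM, a log2 difference of 0.20 ± 0.289 (adjusted p = 0.814, limma). Nol6 was the 1 member of this group below 0, with 25.02 and 24.5 RPKM in the wild-type pair, then 17.9 and 27.5 RPKM in the null pair, a log2 difference of −0.15. All 6 genes overlapped between genotypes, as did 6778 of the 12107 tested genes. The median of the 6 was 0.28. It turned to −0.0074 without B7-H4-null replicate 2, beside −0.14 for all tested genes.

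Late maturation of the 40S subunit gave the smallest median of the 7 role groups, 0.05 over 4 genes. Without B7-H4-null replicate 2 it was −0.22, beside −0.14 for all tested genes. Bysl (gene ID 53414, chromosome 17, 47599331 to 47611492), bystin, binds the late precursor before its export. It had 25.7 and 27.1 RPKM in the wild-type pair, then 12.1 and 39.9 RPKM in the null pair. Wild type was tight while the B7-H4-null libraries differed 3.30-fold, the widest gap of any member within that genotype. The log2 difference was −0.25 ± 0.507 (SE, adjusted p = 0.873, limma), with 0.58 if B7-H4-null replicate 1 was left out and −1.07 if replicate 2 was. Tsr1, a GTPase-like factor of the same precursor, had 29.0 and 20.3 RPKM in the wild-type pair, then 17.8 and 30.3 RPKM in the null pair, −0.061 on the log2 scale.

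Ltv1, an export adapter of the 40S precursor, had 49.3 and 41.8 RPKM in the wild-type pair, then 44.8 and 58.4 RPKM in the null pair, and Rrp12 had 23.8 and 17.4 RPKM against 20.3 and 25.8 RPKM. The log2 difference was 0.17 ± 0.265 in Ltv1 (SE, adjusted p = 0.829, limma) and 0.16 ± 0.277 in Rrp12 (adjusted p = 0.847, limma). Genotypes overlapped for every gene of this group, as for 6778 of the 12107 tested genes.

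**Figure D3:**
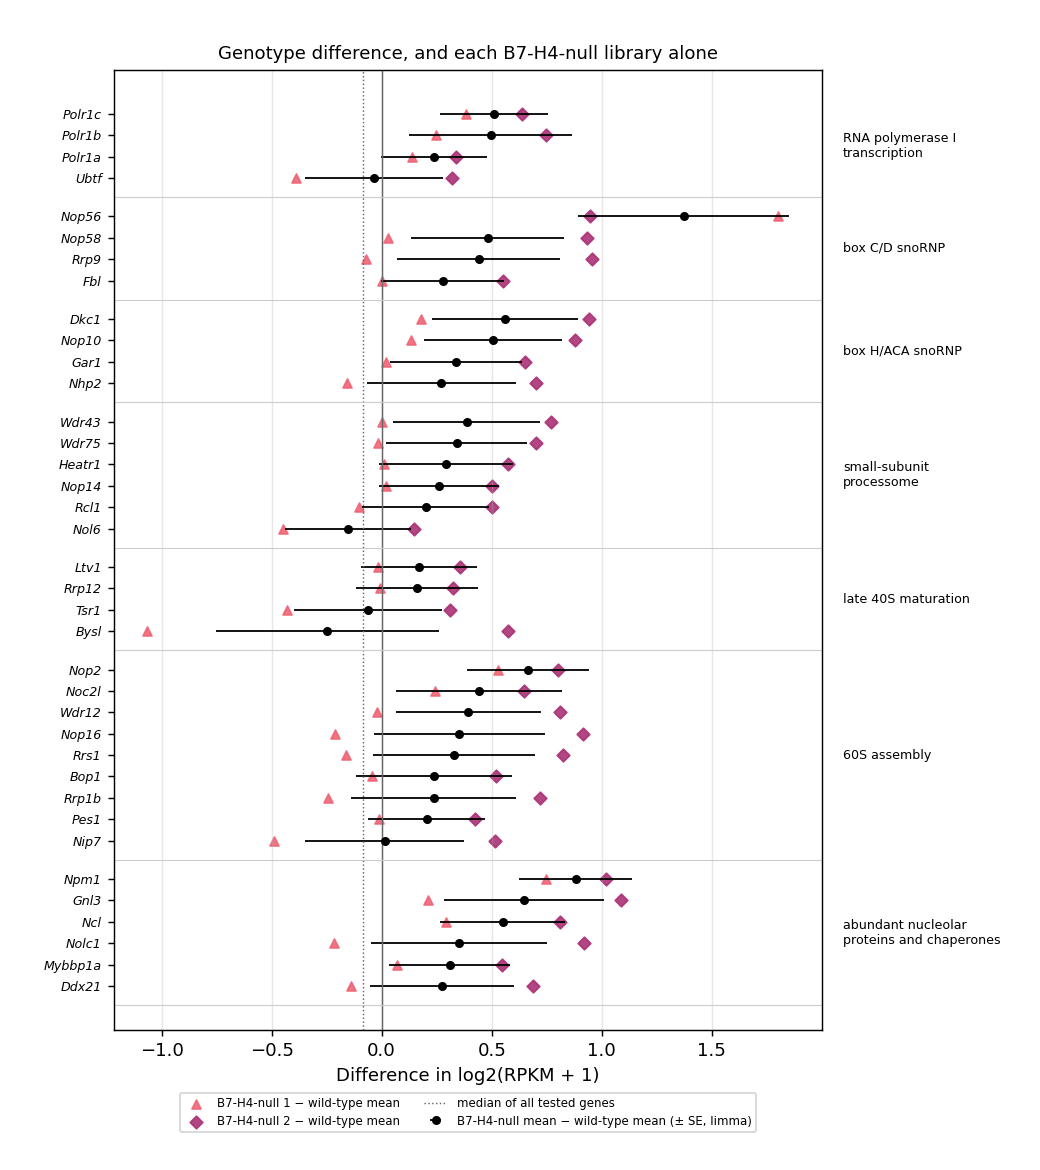
Difference in log2(RPKM + 1) from wild type for each member: black points are the B7-H4-null mean minus the wild-type mean with the limma SE, triangles and diamonds are B7-H4-null replicates 1 and 2 alone against the wild-type mean. Diamonds lie above 0 for all 37 members, triangles for 18, and the dotted line marks the median of all tested genes at −0.09.

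The factors of 60S assembly made the largest group. Nop2 (gene ID 110109, chromosome 6, 125131883 to 125144753), an RNA methyltransferase known as a proliferation antigen, had 43.4 and 31.2 RPKM in the wild-type pair, then 53.6 and 65.0 RPKM in the null pair. It was the 1 member of these 9 without overlap, beside 16.0% of all tested genes higher without overlap. Its mean was 1.59-fold that of wild type, and its log2 difference was 0.67 ± 0.278 (SE, adjusted p = 0.405, limma), higher in 2 of 2 B7-H4-null libraries and between 0.43 and 0.90 whichever library was left out. Noc2l, which is also known as an inhibitor of histone acetylation, had 108 and 53.8 RPKM in the wild-type pair, then 90.4 and 119.9 RPKM in the null pair. The wild-type libraries of Noc2l differed by more than the genotype means, and its 0.44 ± 0.378 (adjusted p = 0.677, limma) was −0.052 without wild type replicate 2.

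Bop1, Pes1 and Wdr12 encode a trimeric complex needed for 60S maturation. Bop1 had 69.3 and 39.6 RPKM in the wild-type pair, then 50.9 and 75.5 RPKM in the null pair, a log2 difference of 0.24 ± 0.355 (SE, adjusted p = 0.82, limma). Wdr12 had 20.3 and 18.01 RPKM in the wild-type pair, then 18.8 and 34.3 RPKM in the null pair, at 0.39 ± 0.329 (adjusted p = 0.67, limma). Pes1 had 52.05 and 48.6 RPKM in the wild-type pair, then 49.9 and 67.8 RPKM in the null pair. In all 3 genes of the complex B7-H4-null replicate 1 lay between the wild-type libraries and replicate 2 above them.

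The other four factors of this group were lowest in B7-H4-null replicate 1. Nop16 had 35.6 and 32.9 RPKM in the wild-type pair, then 29.4 and 65.5 RPKM in the null pair, and Nip7, a small RNA-binding factor, 16.3 and 17.95 RPKM against 11.9 and 24.9 RPKM. Rrs1, which helps to bring in the 5S particle, had 30.8 and 24.5 RPKM in the wild-type pair, then 24.4 and 49.4 RPKM in the null pair. Rrp1b had 17.9 and 12.6 RPKM in the wild-type pair, then 12.5 and 25.4 RPKM in the null pair. In each of them B7-H4-null replicate 2 was more than 2-fold above replicate 1. The median of the 9 genes was 0.33. It turned to −0.042 when B7-H4-null replicate 2 was left out, beside −0.14 for all tested genes.

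**Figure D4:**
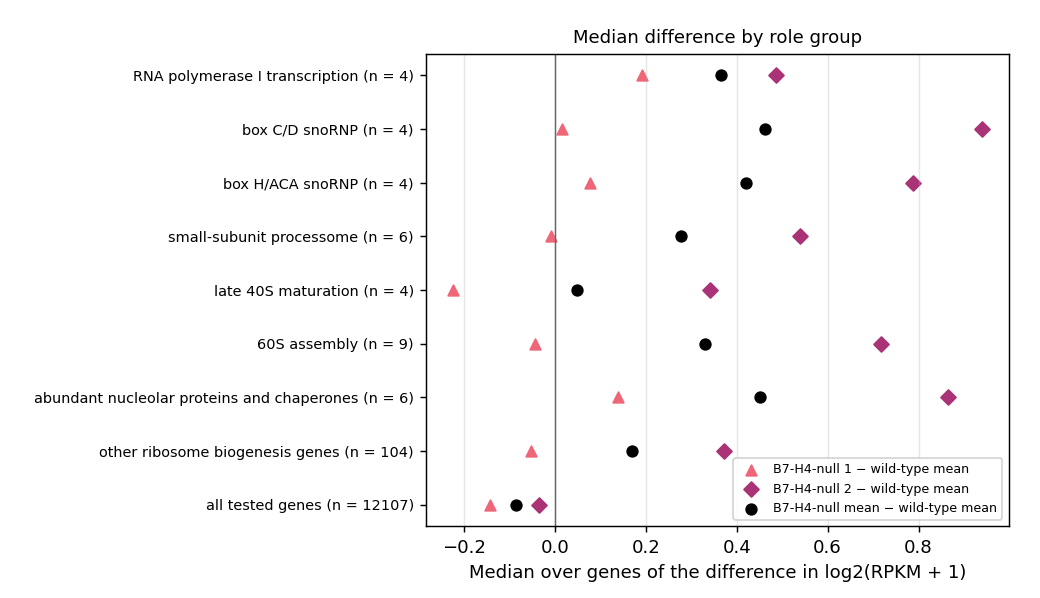
Median over the genes of each role group of the difference in log2(RPKM + 1) from the wild-type mean, for B7-H4-null replicate 1 (triangles), replicate 2 (diamonds) and their mean (points). Replicate 2 lies between 0.34 and 0.94 in the 7 role groups, replicate 1 between −0.22 and 0.19, beside −0.033 and −0.14 for all tested genes.

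Other genes of the pathway were read from a list of 104 further factors of ribosome assembly, all of which were tested. By limma 0 of 104 passed in either direction, while an unadjusted p under 0.05 was reached by 2 above and 0 below (beside 5.05% and 7.2% of all tested genes), and limma-voom gave the same counts. Their median log2 difference was 0.17, with 77 above 0 beside 41.5% of all tested genes, and 84 of 104 were highest in B7-H4-null replicate 2, beside 26.4%. Both null libraries lay above both wild-type libraries in 26 of the 104, beside 16.0% of all tested genes, and below them in 5, beside 28.0%. Without B7-H4-null replicate 2 their median was −0.052, beside −0.14 for all tested genes. Taf1d, a subunit of the polymerase I selectivity factor, had 52.2 and 52.3 RPKM in the wild-type pair, then 88.9 and 72.8 RPKM in the null pair, a log2 difference of 0.61 ± 0.25 (SE, adjusted p = 0.394, limma). Las1l, a nuclease that cuts the spacer between precursor parts, had 25.5 and 22.4 RPKM against 35.9 and 36.1 RPKM (adjusted p = 0.407, limma). In both genes the B7-H4-null libraries were level with each other or higher in replicate 1, unlike most members.

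Nle1, a 60S assembly factor, had 33.9 and 28.3 RPKM in the wild-type pair, then 41.04 and 55.7 RPKM in the null pair (adjusted p = 0.431, limma). Krr1, of the small-subunit processome, had 33.8 and 34.03 RPKM in the wild-type pair, then 47.6 and 49.7 RPKM in the null pair (adjusted p = 0.454, limma). Both showed no overlap. The most abundant genes of the list, Nop53 and Rrp1, overlapped between genotypes, at 0.24 ± 0.306 for Nop53 (SE, adjusted p = 0.784, limma) and 0.16 ± 0.254 for Rrp1 (adjusted p = 0.835, limma) on the log2 scale.

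Promoter sequence is shown for 4 members to set the ends of the range beside each other: Nop56 and Bysl have the largest and the smallest log2 difference among members with a promoter window, and Nop2 and Tsr1 hold the same pair of motifs but differ by 0.67 and −0.061 between genotypes. The sequences are RefSeq's on GRCm38.p6, from 170 bases before to 30 after the annotated start, 5′ to 3′ on the gene's strand, with motif letters in capitals. Nop56 is chr2:130274242-130274441 (plus strand), Bysl chr17:47611463-47611662 (minus strand), Nop2 chr6:125131713-125131912 (plus strand) and Tsr1 chr11:74897910-74898109 (plus strand).
Nop56: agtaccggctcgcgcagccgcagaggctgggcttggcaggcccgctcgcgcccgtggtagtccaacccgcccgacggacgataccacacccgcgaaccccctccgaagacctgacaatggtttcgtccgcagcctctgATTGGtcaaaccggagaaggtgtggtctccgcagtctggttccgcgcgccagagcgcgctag
Bysl: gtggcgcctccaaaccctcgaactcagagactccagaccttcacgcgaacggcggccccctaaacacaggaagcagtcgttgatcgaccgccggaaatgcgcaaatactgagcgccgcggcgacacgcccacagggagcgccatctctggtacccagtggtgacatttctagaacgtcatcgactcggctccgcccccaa
Nop2: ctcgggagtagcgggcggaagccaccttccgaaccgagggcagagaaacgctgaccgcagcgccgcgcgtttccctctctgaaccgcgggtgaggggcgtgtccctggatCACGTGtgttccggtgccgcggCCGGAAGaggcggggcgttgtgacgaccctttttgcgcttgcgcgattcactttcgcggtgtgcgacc
Tsr1: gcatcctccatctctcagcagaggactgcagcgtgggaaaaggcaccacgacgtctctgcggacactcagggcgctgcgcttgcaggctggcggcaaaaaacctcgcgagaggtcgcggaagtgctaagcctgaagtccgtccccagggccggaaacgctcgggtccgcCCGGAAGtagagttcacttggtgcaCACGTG
Capitals mark CCAAT or its complement in Nop56, and CACGTG and CCGGAAG in Nop2 and Tsr1, while none of the motifs searched is in the Bysl stretch. In Nop2 the CACGTG begins 60 bases and the CCGGAAG 38 bases before the start. In Tsr1 the CCGGAAG begins 1 base before the start and the CACGTG 24 bases after it.

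Promoter windows of 300 bases, 250 before and 50 after the start, were at hand for 31 members. Bop1, Fbl, Nol6, Npm1, Rrp12 and Rrs1 were not among them. On both strands, CACGTG, the E-box that Myc proteins can bind, was in 6 of 31 members (19.4%; Ltv1, Mybbp1a, Nop2, Pes1, Tsr1 and Wdr43), beside 12.2% of 8882 tested genes and 8.09% of all 27025 genes with a window. CCGGAAG, the core of ETS factor sites, was in 10 (32.3%), beside 21.9% of tested genes and 9.93% of all genes. Ltv1, Nop2 and Tsr1 held both CACGTG and CCGGAAG, with log2 differences of 0.17, 0.67 and −0.061 between genotypes. CCAAT was in 12 (38.7%), beside 43.5% and 41.1%. The palindrome known from Zbtb33 sites, given by name alone, and GCCATCTT, a core of YY1 sites, were in 0, beside 1.23% and 5.8% of tested genes and 0.525% and 3.19% of all genes. No motif contains another. A match describes these letters only.

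Several members carry small nucleolar RNAs or share bases with another gene, which bears on how their reads can be assigned. GENCODE places 21 snoRNA genes on the same strand inside 7 members: 5 in Nop56, 4 in Nop58, 3 each in Wdr43, Ncl and Gnl3, 2 in Tsr1 and 1 in Dkc1. Of these hosts, Nop56 and Ncl are among the 8 of 37 members without overlap, beside 16.0% of all tested genes higher without overlap. A link between carrying snoRNAs and the genotype difference was not tested. Exon bases are shared with a gene on the opposite strand in 17 of 37 members. The library kit does not mark strand, so reads there cannot be told apart. The largest shared stretches are 1240 bases in Tsr1 (with Srr), 598 in Noc2l (with Samd11) and 361 in Bysl (with Ccnd3), and in Nop56 the stretch is 5 bases. Of the other members without overlap between genotypes, Polr1a shares 185 bases (with Gm26628) and Mybbp1a 131 (with Spns2). Npm1, Ncl, Polr1c, Nop2 and Nop10 share none. Pseudogenes were searched only by names built on a member's symbol, which gave Fbl-ps2, so reads shared with other copies were not assessed.

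Markers of other cells and of cell handling were read in the same libraries. All 12 of 12 late neutrophil genes were lower in both B7-H4-null libraries without overlap, beside 28.0% of all tested genes. Their summed levels were 24307 to 31732 RPKM in wild type and 8613 to 12507 RPKM in B7-H4-null. All 15 immediate early genes, known to respond fast to signals and to cell handling, were highest in B7-H4-null replicate 1, where 2126 of 12107 tested genes were. They summed to 2346 and 3502 RPKM in wild type and to 12623 and 5719 RPKM in B7-H4-null replicates 1 and 2. The monocyte and macrophage list summed to 1047 and 1227 RPKM in wild type and to 1413 and 1652 RPKM in B7-H4-null, most of it Ly6c2, and 5 of 12 genes were under 1 RPKM everywhere. Of its genes 3 were higher without overlap and 4 lower, beside 16.0% and 28.0% of all tested genes. The higher were Ly6c2, Marco (0.27 RPKM or less) and Cd68, at 60.5 and 63.4 RPKM in the wild-type pair, then 147 and 139 RPKM. Vcam1 was lower, at 93.0 and 30.01 RPKM in the wild-type pair, then 12.6 and 1.12 RPKM in the null pair. So were C1qa, C1qc and Mrc1, each at 1.22 RPKM or less in every library. Of the erythroid genes 7 of 8 in the table, of the T and NK cell genes 9 of 10, of the B cell genes 6 of 8, of the dendritic cell genes 6 of 7 and of the stroma and endothelium genes 7 of 9 were under 1 RPKM in every library. Among the genes above that level, Flt3 of the dendritic list stood at 8.90 and 23.0 RPKM in the wild-type pair, then 99.3 and 102.8 RPKM in the null pair, and Pecam1 of the endothelial list at 16.4 and 17.7 RPKM, then 37.1 and 31.0 RPKM. Others overlapped between genotypes. Nkg7 of the T and NK cell list had 31.4 and 29.1 RPKM, then 21.0 and 39.2 RPKM. Col1a1 of the stroma list had 1.72 and 0.88 RPKM, then 0.88 and 1.20 RPKM. Hbb-bs of the erythroid list had 0.46 and 0.63 RPKM, then 1.83 and 0.14 RPKM. Cd79b of the B cell list stood at 35.4 and 45.5 RPKM in the wild-type pair, then 58.7 and 60.7 RPKM in the null pair. Vpreb1 of that list was at 0 and 0.13 RPKM, then 1.66 and 2.05 RPKM. Without overlap, 3 genes of the B cell list were higher and 1 was lower, beside 16.0% and 28.0% of all tested genes. The dendritic list had 1 higher and 2 lower, and the stroma and endothelium list 1 higher and 3 lower. The T and NK cell list and the erythroid list each had 0 higher and 1 lower. These lower genes were all under 1 RPKM in every library. Pax5, a defining B cell factor, was at 0 in all 4 libraries. The part of these shifts in the members' levels was not tested.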

How the data were processed

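RNA of 2 wild-type and 2 B7-H4-null LSC samples was sequenced with a TruSeq version 2 kit, per the labels' protocols. The submitters' processing notes name TopHat2 2.0.12 and the build GRCm38. No source used here says how genes were counted (program, annotation, strand). The authors deposited 1 table of RPKM values by Entrez gene ID, a unit read from its values. Steps between low values gave each library's total, and reads came out whole (within 0.002 read) for 14606 of 14608 genes above 0 in every library. Symbols and coordinates came from RefSeq on GRCm38.p6 (25275 of 27179 IDs matched).

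Genotypes were compared on log2(RPKM + 1) with limma 3.58.1 under R 4.3.3, two-sided, for genes that reached 1 RPKM in 2 libraries or more. Its model held genotype alone, its variance prior followed mean expression, and p-values were adjusted by Benjamini-Hochberg. Such differences understate the change of low genes. The script was tested on simulated data. Members given with a test are, per role group, the 2 with the highest mean and the 2 with the smallest p, and of the other pathway genes the 4 with the smallest p and the 2 with the highest mean. The members, lists and rules were chosen with earlier results of these data known. Alternatives were the pseudocount, the filter, 2 scalings, no trend, a replicate block, limma-voom on recovered reads and leaving out each library, with the tested genes kept and the lone library assumed to vary like the other genotype's pair.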

Additional observations from a re-analysis of the deposited data

How the results depend on the processing

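With 2 libraries per genotype, no member and none of the 104 other pathway genes passed under any of the 12 alternatives run. The count of all tested genes called, 5 higher and 7 lower, was 0 and 0 with no filter on low values (with 799 above and 1088 below wild type at an unadjusted p under 0.05), and ranged from 0 to 36 higher and from 0 to 20 lower when 1 library was left out. The median of all tested genes, −0.09, was −0.017 with no filter, 0.0063 after median-ratio scaling and −0.038 after quantile normalization, and between −0.14 and −0.033 with 1 library left out. Members higher without overlap numbered 18 and 13 after those scalings in place of 8, beside 22.1%, 19.1% and 16.0% of all tested genes. With 1 library left out they numbered 8 to 37, and those lower 0 to 12, but a lone library overlaps less easily. The 37 came without B7-H4-null replicate 1, beside 33.6% of all tested genes. The 12 came without B7-H4-null replicate 2, beside 49.8%. Shares were not computed for the runs without a wild-type library. Over the same libraries left out, the members' median ran from −0.0061 to 0.69, the box C/D median from 0.017 to 0.94 and that of the abundant nucleolar proteins from 0.14 to 0.86. Besides the members' median, those that changed sign were the small-subunit processome (−0.0074 to 0.54), late 40S maturation (−0.22 to 0.34), 60S assembly (−0.042 to 0.72) and the 104 other genes (−0.052 to 0.37). The difference of 20 of the 37 members changed sign with some library left out. Among members given with a test these were Ubtf (−0.39 to 0.32, and 0.066 after median-ratio scaling), Nhp2 (−0.16 to 0.70), Wdr75 (−0.018 to 0.70), Rcl1 (−0.10 to 0.50), Bysl (−1.07 to 0.58), Ltv1 (−0.017 to 0.36), Rrp12 (−0.055 to 0.37), Bop1 (−0.16 to 0.63), Wdr12 (−0.023 to 0.81) and Noc2l (−0.052 to 0.94). The others were Rrp9, Nol6 (−0.45 to 0.15), Tsr1 (−0.43 to 0.31), Pes1, Nop16, Nip7, Rrs1, Rrp1b, Ddx21 and Nolc1. The cause was not tested.

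The replicate numbers are shared between genotypes but no label says that they pair samples. Deviations of same-numbered libraries correlated at 0.247 across 12107 genes. A replicate block gave 12 genes higher and 9 lower in all, and 0 members, with a smallest adjusted p of 0.0811 for Nop56 (limma).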
